A study of Homo sapiens with 6 samples.

Results

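The transforming growth factor beta (TGF-β) pathway is represented here by 10 genes: the ligands TGFB1, TGFB2 and TGFB3, the receptors TGFBR1, TGFBR2 and TGFBR3, and the intracellular mediators SMAD2, SMAD3, SMAD4 and SMAD7. They were taken by symbol, through the Ensembl identifier of each row in GENCODE release 29, from a table of 29908 genes, and all 10 were found. The samples were 6 RNA sequencing libraries of Hep3B, an established human hepatocellular carcinoma (HCC) cell line. Both groups were infected with lentivirus at a multiplicity of infection of 5 and then selected with puromycin. Hep3B-Con cells, with 3 libraries, are labelled shControl and described in the study design as carrying an empty vector. Hep3B-KD cells, with 3 libraries, carried an shRNA against DAGLA, the enzyme that makes the endocannabinoid 2-arachidonoylglycerol (2-AG) from diacylglycerol. The replicates are described as biological. A single hairpin sequence stands for the knockdown in 1 cell line, so an effect of DAGLA loss and an effect of that hairpin or of the selected cells cannot be told apart.

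TGF-β ligands are secreted as latent dimers, held by latency proteins until integrins, proteases or thrombospondin release them. The active ligand binds the type II receptor TGFBR2, which recruits and phosphorylates the type I receptor TGFBR1. TGFBR1 then phosphorylates SMAD2 and SMAD3, which join SMAD4 and enter the nucleus. SMAD7 is induced by the pathway and blocks it at the receptor. In liver, the pathway is known for restraining hepatocyte growth, for activating stellate cells and, in carcinoma cells, for promoting epithelial–mesenchymal transition.

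The hairpin and its matches among these genes are shown first because they give the sequence context of the comparison. The hairpin targets 19 bases of DAGLA, and no other gene with a complete coding transcript in GENCODE release 29 held all of them. Its guide strand, derived as the reverse complement, is written with bases 2 to 8, the seed, in capitals.
shDAGLA target in DAGLA: gcgacaacaaggccttcaa
shDAGLA guide strand: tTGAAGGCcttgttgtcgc

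A 3′ UTR match to the seed reads GCCTTCA. It was present in 1627 of 11184 tested genes with a 3′ UTR of at least 50 bases (14.5%). The sites in SMAD3, TGFBR1 and TGFBR2 are shown as examples, and no count among the 10 genes is given. They were read from GENCODE release 29 transcripts (GRCh38), and the capitals mark the 7 matched bases. The sites lie at chr15:67194870-67194876 for SMAD3, chr9:99149920-99149926 for TGFBR1 and chr3:30692539-30692545 for TGFBR2, all on the plus strand.
SMAD3 3′ UTR: atccaagaaGCCTTCActcaccttc
TGFBR1 3′ UTR: acattacatGCCTTCAaaatgggat
TGFBR2 3′ UTR: ctgctcccaGCCTTCAtccttttct

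A match is a description of the letters and not a measured site.

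Expression was given as FPKM, the reads of a gene scaled to the length of its exons and to the library total. The library totals recovered from the values were 15861039 to 17572714 reads. They equal the reads summed over the genes given, so reads outside these genes are not in them. Groups were compared with limma on log2(FPKM + 0.1). The 0.1 FPKM is a pseudocount that keeps low values finite and understates the change of low genes. Genes whose 6 libraries averaged 0.5 FPKM or more were compared, 14147 in all, and p-values were adjusted by the Benjamini-Hochberg method over all of them. A gene is said below to have risen or fallen where its adjusted p was under 0.05. The targeted gene DAGLA measured 9.42, 9.40 and 9.02 FPKM in Hep3B-Con cells and 4.62, 4.46 and 4.78 FPKM in Hep3B-KD cells. It fell by 0.99 on the log2 scale (SE 0.0442, adjusted p = 4.9e-06). The hepatocyte lineage markers were high in all libraries and led by albumin. The summed FPKM of 12 such markers was 3333 to 3390 in Hep3B-Con cells and 5021 to 5062 in Hep3B-KD cells. In bulk libraries, fewer cells expressing a gene and less RNA per cell cannot be told apart.

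The pathway did not move in 1 direction. Of the 10 genes, 5 rose in Hep3B-KD cells (TGFBR2, TGFBR3, SMAD2, SMAD4 and SMAD7), 4 fell (TGFB1, TGFB2, TGFBR1 and SMAD3) and TGFB3 did not pass the test. That is 9 of 10 genes, against 60.3% of all genes tested in this comparison. The 10 genes and the lists below were chosen with earlier results of these data known. Their shares set beside those of all genes are therefore a description and not a test. Of all genes, 36.3% rose and 24.0% fell. Of genes that also changed 2-fold or more, TGFB1 and TGFB2 were lower and TGFBR3 was higher, against 8.83% of all genes (5.88% higher and 2.95% lower). The 3 Hep3B-Con and 3 Hep3B-KD values did not overlap in 9 of the 10 genes, against 67.2% of all genes. The median log2 fold change of the 10 genes was 0.07, beside 0.11 over all genes tested.

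The ligands carried the largest falls. TGFB1 (ENSG00000105329, chr19:41301587-41353911, minus strand), which encodes the most widely expressed isoform, measured 49.7, 41.5 and 42.8 FPKM in Hep3B-Con cells and 16.2, 17.4 and 16.8 FPKM in Hep3B-KD cells. All 3 knockdown libraries lay below all 3 controls, and the first control was the highest. The mean went from 44.7 ± 4.43 FPKM (SD, n = 3) to 16.8 ± 0.631 FPKM (SD, n = 3), a log2 fold change of -1.40 (SE 0.0703, 95% confidence interval -1.57 to -1.23, adjusted p = 7.76e-06), or 2.64-fold lower on this scale. These levels rested on 2306 to 2829 reads per control library and 831 to 907 reads per knockdown library. The coefficient of variation among the controls was 9.91%, where counting error alone gives 2%.

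TGFB2 (ENSG00000092969, chr1:218346235-218444619, plus strand), the isoform that needs the co-receptor TGFBR3 for strong binding to TGFBR2, measured 10.9, 12 and 11.4 FPKM in Hep3B-Con cells and 4, 4.39 and 3.93 FPKM in Hep3B-KD cells. The groups were well apart and tight, at 11.4 ± 0.535 and 4.11 ± 0.246 FPKM (SD, n = 3 each). The log2 fold change was -1.45 (SE 0.0587, 95% confidence interval -1.59 to -1.31, adjusted p = 3.34e-06), and its moderated t was the largest in size among the 10 genes. The fall of TGFB2 differed from that of TGFB1 by less than the width of either interval.

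TGFB3 (ENSG00000119699, chr14:75958099-75982991, minus strand), the third mammalian isoform, was low, at 0.973, 1.31 and 1.27 FPKM in Hep3B-Con cells and 1.06, 1.12 and 1.25 FPKM in Hep3B-KD cells. The groups overlapped. The log2 fold change was -0.04 with a 95% confidence interval of -0.40 to 0.32 (adjusted p = 0.837), from 83 to 112 reads per library. The interval leaves room for a change of up to 0.40 on the log2 scale in the lower direction, and it does not reach the falls of TGFB1 and TGFB2.

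Summed over the 3 isoforms, ligand mRNA measured 61.6, 54.8 and 55.5 FPKM in Hep3B-Con cells and 21.2, 22.9 and 22.0 FPKM in Hep3B-KD cells. The groups did not overlap, and the exact permutation test (two-sided) gave p = 0.1, the smallest that 3 against 3 libraries allow. FPKM is scaled to length, so the isoforms can be set side by side within a library. TGFB1 made up 80.7%, 75.8% and 77.1% of ligand FPKM in Hep3B-Con cells and 76.2%, 76.0% and 76.5% in Hep3B-KD cells. These shares overlapped (difference -1.67 percentage points, exact permutation p = 0.4). Without the first control library the difference was -0.238 points.

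The receptors went in different directions. TGFBR1 (ENSG00000106799, chr9:99104038-99154192, plus strand), the type I kinase that phosphorylates SMAD2 and SMAD3, measured 5.55, 4.39 and 4.71 FPKM in Hep3B-Con cells and 2.79, 2.60 and 2.81 FPKM in Hep3B-KD cells. All knockdown values lay below the controls, of which the first was again the highest. The means were 4.88 ± 0.597 and 2.73 ± 0.115 FPKM (SD, n = 3 each), and the log2 fold change was -0.81 (SE 0.093, 95% confidence interval -1.03 to -0.59, adjusted p = 0.000322).

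TGFBR2 (ENSG00000163513, chr3:30606502-30694142, plus strand), the type II kinase that binds the ligand first, measured 24.3, 24.4 and 23.6 FPKM in Hep3B-Con cells and 32.9, 33.9 and 34.0 FPKM in Hep3B-KD cells. It was the most abundant of the receptor mRNAs in every library and the rise was uniform. From 24.1 ± 0.419 to 33.6 ± 0.589 FPKM (SD, n = 3 each), it rose by 0.48 on the log2 scale (SE 0.0258, 95% confidence interval 0.42 to 0.54, adjusted p = 1.05e-05). The spread within each group, 1.74% and 1.75%, was no larger than the counting error of 2.26% and 1.98%.

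The balance between both kinases shifted accordingly. The log2 ratio of TGFBR1 to TGFBR2 was -2.11, -2.45 and -2.30 in Hep3B-Con cells and -3.51, -3.65 and -3.55 in Hep3B-KD cells. The difference of -1.29 was larger than the spread within either group (SD 0.170 and 0.0730, n = 3 each), with an exact permutation p of 0.1, the smallest possible. A ratio within a library is unaffected by a single scaling factor per library, apart from the pseudocount, but not by quantile normalization, under which this difference was -1.56.

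TGFBR3 (ENSG00000069702, chr1:91680343-91906335, minus strand), the co-receptor betaglycan, was the least abundant of the 10 genes in the controls and showed the largest rise. It measured 0.248, 0.238 and 0.173 FPKM in Hep3B-Con cells, from 25 to 38 reads, and 1.22, 1.2 and 1.09 FPKM in Hep3B-KD cells, from 157 to 168 reads. The groups were far apart. The log2 fold change was 2.00 (SE 0.225, 95% confidence interval 1.46 to 2.53, adjusted p = 0.000291), or 3.99-fold on this scale. TGFBR3 passed the minimum mean of 0.5 FPKM only through its level in Hep3B-KD cells. With no minimum the adjusted p was 0.000558, and with a minimum mean of 1 FPKM the gene was not tested. The size depends on the scale for so low a gene, at 0.83 with a pseudocount of 1 FPKM and 2.40 with limma voom on the recovered reads.

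**Figure D1:**
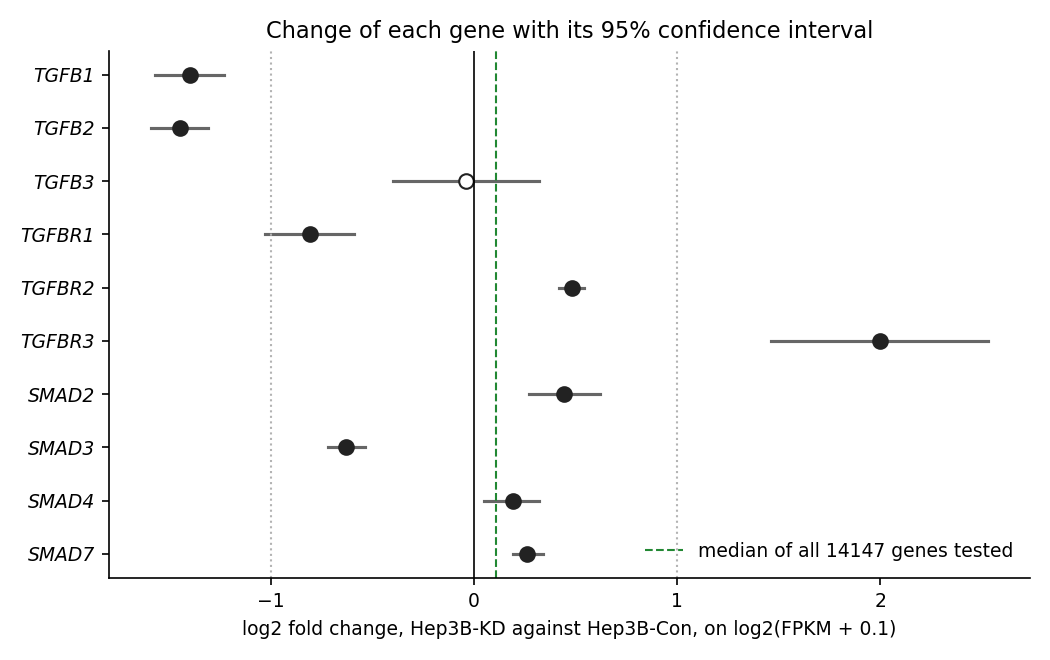
Log2 fold change of each gene between Hep3B-KD and Hep3B-Con cells on log2(FPKM + 0.1) (horizontal axis), with 95% confidence intervals as bars and filled points for adjusted p under 0.05. TGFB1 and TGFB2 lie beyond the dotted line at -1 (2-fold lower) and TGFBR3 beyond the one at 1, while the dashed line marks the median of all genes, 0.11, which lies inside the interval of SMAD4 (0.05 to 0.32).

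The receptor-regulated SMADs moved apart. SMAD2 (ENSG00000175387, chr18:47808957-47931146, minus strand) measured 1.66, 1.76 and 1.70 FPKM in Hep3B-Con cells and 2.28, 2.35 and 2.44 FPKM in Hep3B-KD cells. Every knockdown value exceeded every control value, with a log2 fold change of 0.44 (SE 0.0722, 95% confidence interval 0.27 to 0.62, adjusted p = 0.00175). These FPKM values are low for the reads behind them, 1027 to 1110 and 1315 to 1470 per library, because the exons of all annotated SMAD2 transcripts add up to 36366 bases. Set against the 10445 bases of the transcript SMAD2-202, the same reads correspond to 5.94 ± 0.161 and 8.20 ± 0.273 FPKM (SD, n = 3 each).

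SMAD3 (ENSG00000166949, chr15:67063763-67195195, plus strand), which unlike the main form of SMAD2 binds DNA directly, measured 18.0, 17.9 and 18.5 FPKM in Hep3B-Con cells and 12, 11.8 and 11.2 FPKM in Hep3B-KD cells. The means were 18.1 ± 0.366 and 11.7 ± 0.429 FPKM (SD, n = 3 each), and SMAD3 changed by -0.63 on the log2 scale (SE 0.0371, 95% confidence interval -0.72 to -0.54, adjusted p = 1.46e-05). No value of one group came near the other, and each library held at least 1692 reads of the gene.

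The log2 ratio of SMAD2 to SMAD3 went from -3.35, -3.27 and -3.37 in Hep3B-Con cells to -2.35, -2.28 and -2.15 in Hep3B-KD cells. The difference was 1.07, with no overlap and an exact permutation p of 0.1. The level of this ratio depends on the exon length used for SMAD2, whereas the difference between groups hardly does, since the length is the same in every library.

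SMAD4 (ENSG00000141646, chr18:51028394-51085045, plus strand), the common partner of the receptor-regulated SMADs, measured 3.92, 4.42 and 4.23 FPKM in Hep3B-Con cells and 4.76, 4.76 and 4.81 FPKM in Hep3B-KD cells. The groups did not overlap, but the step from the highest control to the lowest knockdown value was small. The log2 fold change was 0.19 (SE 0.0563, 95% confidence interval 0.05 to 0.32, adjusted p = 0.0263). This call was lost when libraries were centred on their median log ratio (0.08, adjusted p = 0.252) and under quantile normalization (0.04, adjusted p = 0.593). Leaving out 1 library lost it in 5 of 6 cases, with adjusted p-values from 0.0563 to 0.0705.

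SMAD7 (ENSG00000101665, chr18:48919853-48952052, minus strand), the inhibitory SMAD, measured 12, 11.8 and 11.8 FPKM in Hep3B-Con cells and 13.9, 14.4 and 14.5 FPKM in Hep3B-KD cells. The controls were nearly equal and all knockdown values were higher. The log2 fold change was 0.26 (SE 0.0315, 95% confidence interval 0.19 to 0.34, adjusted p = 0.000378). The log2 ratio of SMAD7 to SMAD4 was 1.48 ± 0.0995 in Hep3B-Con cells and 1.56 ± 0.0310 in Hep3B-KD cells (SD, n = 3 each). Its difference of 0.08 lay within the overlap of the libraries (exact permutation p = 0.4).

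The direction of small changes depends on the scaling of the libraries, because the median gene itself was 0.11 higher in Hep3B-KD cells and 0.01 higher after median centring. Relative to the median of all genes, the log2 differences were -1.51 for TGFB1, -1.56 for TGFB2, -0.92 for TGFBR1 and -0.74 for SMAD3. They were 1.89 for TGFBR3, 0.37 for TGFBR2, 0.33 for SMAD2, 0.16 for SMAD7 and 0.08 for SMAD4. Apart from SMAD4, every called gene kept its call under rescaling to the same FPKM sum, median centring and quantile normalization. Under quantile normalization SMAD2 was at 0.21 with an adjusted p of 0.0463.

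In order of level per exon length, Hep3B-Con cells ran from TGFB1 through TGFBR2, SMAD3, SMAD7, TGFB2, TGFBR1, SMAD4, SMAD2 and TGFB3 to TGFBR3. SMAD7 and TGFB2 overlapped in that order, as did TGFBR1 and SMAD4, and the place of SMAD2 depends on its exon length. TGFB1 ranked 976 by control level among the 14147 genes tested and TGFBR3 ranked 14086. In Hep3B-KD cells, TGFBR2 stood above TGFB1 in every library and SMAD7 stood above SMAD3. TGFBR3, at 1.09 to 1.22 FPKM, then overlapped TGFB3. The summed level of the 10 genes was 120 to 127 FPKM in Hep3B-Con cells and 91.1 to 93.9 FPKM in Hep3B-KD cells.

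Exons shared with neighbours bear on 5 of these genes, since the strand of the reads was not stated. HNRNPUL1, an RNA-binding protein gene on the opposite strand, shares 215 of the 3238 exon bases of TGFB1, and it measured 63.5 to 67.0 FPKM in all libraries (log2 fold change 0.01, adjusted p = 0.687). TGFB2-OT1 overlaps 1371 of the 5151 exon bases of TGFB2 on the same strand and was not analysed here. TGFB3-AS1, opposite to TGFB3, shares 163 of its 4914 exon bases and was not analysed here. AC087482.1, opposite to SMAD3, shares 182 bases and stayed at 0.225 to 0.564 FPKM. AC091551.1 shares 967 of the 13123 exon bases of SMAD4 on the same strand and was not analysed here. How the counting divided such reads was not tested.

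TGFB2 had the largest moderated t of the 10 genes, and the genes whose profile over the 6 libraries lay closest to it were FUT1, GPR157, SLC1A3, DUSP1 and LRRC8B. Closeness was the Euclidean distance between gene-centred log2(FPKM + 0.1) profiles, and it ran from 0.0731 for FUT1, a fucosyltransferase, to 0.135 for LRRC8B, a volume-regulated anion channel subunit. DUSP1, a phosphatase of MAP kinases, measured 29.1, 30.2 and 28.5 FPKM in Hep3B-Con cells and 10.3, 10.4 and 10.1 FPKM in Hep3B-KD cells. The 6 libraries share 2 groups and little else, so genes with a fall of this size and little spread within the groups lie close.

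Around the ligands, the list of latency and activation genes held 15 genes, of which 11 were tested. Of these, 6 rose and 4 fell (90.9% called, against 60.3% of all genes). The median log2 fold change was 0.17, beside 0.11 for all genes. THBS1, thrombospondin 1, which releases active ligand from its latent complex, measured 174, 174 and 175 FPKM in Hep3B-Con cells and 52.9, 52.9 and 51.8 FPKM in Hep3B-KD cells, a log2 fold change of -1.73 (adjusted p = 3.4e-08). FURIN, the protease that cleaves the ligand precursors, fell from 204, 203 and 206 to 117, 112 and 119 FPKM, by 0.82 on the log2 scale (adjusted p = 8.26e-07). Both genes were more abundant than any of the 10 in every library, and neither varied by more than a few percent within a group. ITGAV, the αv integrin chain that binds latent TGF-β, rose from 29.7, 31.3 and 29.3 to 55.6, 56.5 and 53.2 FPKM (0.87, adjusted p = 3.55e-06). Among its partners, ITGB6 was low, at 0.410 to 0.565 FPKM in Hep3B-Con cells and 0.834 to 1.12 FPKM in Hep3B-KD cells. The rise of ITGB6 by 0.83 (adjusted p = 0.0117) was lost under quantile normalization (0.52, adjusted p = 0.0677) and without the second knockdown library (0.72, adjusted p = 0.05). ITGB6 passed the minimum only through its level in Hep3B-KD cells, and its value was 0.39 with a pseudocount of 1 FPKM. ITGB8, another partner of ITGAV, stayed under 0.1 FPKM in every library. Further partners of ITGAV were not in this list. Of these, ITGB5 belongs to the list of induced genes below and is named here after its values were seen. ITGB5 measured 40.7, 41.4 and 42.4 FPKM in Hep3B-Con cells and 35.1, 35.3 and 35.4 FPKM in Hep3B-KD cells (-0.24, adjusted p = 0.000139). Among the proteins that tether the latent complex to matrix, LTBP1 fell (-0.35, adjusted p = 0.000294) and FBN1, fibrillin 1, rose (0.59, adjusted p = 1.87e-05). ADAMTS1, a secreted metalloproteinase, fell (-0.59, adjusted p = 0.00014). LTBP4 and NRROS were under the minimum, and LRRC32 was not analysed here.

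Among 12 receptor partners, 8 were tested, 2 rose, 3 fell and 3 did not pass. The calls made up 62.5% of those tested, close to the 60.3% of all genes. The median was -0.10, beside 0.11 for all genes. DAB2, an adaptor that links the receptors to SMAD2 and SMAD3 and to endocytosis, fell from 29.2, 29 and 28.6 to 8.29, 8.23 and 8.39 FPKM, a log2 fold change of -1.79 (adjusted p = 8.3e-08) and the only one of this list beyond 2-fold. NRP1, neuropilin 1, which binds TGFB1 and its receptors, rose from 12.2, 12.6 and 12.7 to 23.7, 24.1 and 23.3 FPKM (0.92, adjusted p = 1.44e-06). BAMBI, a pseudoreceptor without kinase activity, rose as well (0.44, adjusted p = 0.000244). VASN, a TGF-β binding membrane protein, fell (-0.29, adjusted p = 0.00979). STRAP, a scaffold that binds receptors and SMAD7, fell by 0.10 (adjusted p = 0.023) and turned to 0.04 under quantile normalization. Its call was also lost under rescaling to the same FPKM sum (adjusted p = 0.0864), without the trend of the variance (0.0772), and when single libraries were left out in 4 of 6 cases (0.0535 to 0.0736). With median centring the count for this list became 2 higher and 5 lower, and with quantile normalization 3 higher and 2 lower. ENG, CD109, ACVRL1 and TDGF1 were under the minimum, ACVRL1 under 0.1 FPKM in every library.

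Of 26 regulators of SMAD proteins, 22 were tested, 14 rose, 3 fell and none changed by 2-fold. Calls were 77.3% of those tested, against 60.3% of all genes, and the median was 0.28, beside 0.11. WWP1, a ubiquitin ligase that acts on TGFBR1 and SMAD proteins together with SMAD7, rose from 9.51, 9.69 and 9.26 to 18.3, 18.7 and 19.2 FPKM (0.97, adjusted p = 1.79e-06). ZFYVE9, or SARA, the anchor that presents SMAD2 and SMAD3 to the receptor, rose (0.62, adjusted p = 4.35e-05). The deubiquitinases USP15 (0.58, adjusted p = 0.0018) and USP11 (0.50, adjusted p = 1.62e-05) and the ligase SMURF2 (0.40, adjusted p = 0.000143) rose too. The co-repressors did not move together: TGIF1 fell from 4.91, 5.02 and 5.02 to 3.44, 3.14 and 2.90 FPKM (-0.65, adjusted p = 0.000238), SKI fell (-0.42, adjusted p = 2e-05) and SKIL rose (0.38, adjusted p = 4.55e-05). PMEPA1, a membrane inhibitor of SMAD2 and SMAD3 that the pathway induces, was at most 0.0608 FPKM in any library. LDLRAD4, FOXH1 and ZEB2 were also under the minimum.

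The list of genes that TGF-β is known to induce held 31 genes, of which 27 were tested, 19 fell and 6 rose. That is 92.6% called, against 60.3% of all genes, where 24.0% fell and 36.3% rose. As this list was chosen with earlier results of these data known, the contrast is not a test. The median was -0.38, beside 0.11 for all genes. CDKN2B, the cyclin-dependent kinase inhibitor p15, fell from 11.2, 10.8 and 10.6 to 2.49, 1.87 and 2.12 FPKM (-2.29, adjusted p = 4.23e-06). BHLHE40, a transcriptional repressor, fell from 20.7, 22.3 and 21.8 to 6.01, 6.82 and 7.43 FPKM (-1.67, adjusted p = 5.53e-06). Both genes were far apart between the groups. JUNB, an AP-1 subunit, measured 96.9, 68.3 and 72.8 FPKM in Hep3B-Con cells, highest in the same control library as TGFB1, and 24.9, 35.8 and 25.4 FPKM in Hep3B-KD cells (-1.47, adjusted p = 0.000439). CTGF, a matricellular protein, fell from 117, 118 and 116 to 62.4, 60.1 and 62 FPKM (-0.93, adjusted p = 3.79e-07). COL1A1, a collagen chain, was under 1 FPKM throughout (-1.20, adjusted p = 0.00666) and passed the minimum only through its level in Hep3B-Con cells. Its value was -0.46 with a pseudocount of 1 FPKM, and it fell below the minimum when any control was left out. SNAI1, a repressor of E-cadherin, fell from 1.46 to 1.91 down to 0.429 to 1.22 FPKM (-1.17, adjusted p = 0.0209), and this call was lost without the first control (adjusted p = 0.0536), the second control (0.0661) or the first knockdown library (0.062).

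The 6 genes of this list that rose are named here after their values were seen: DAPK1 (1.06, adjusted p = 1.21e-06), TSC22D1 (0.90, adjusted p = 1.87e-05), CDH2 (0.85, adjusted p = 2.9e-06), BCL2L11 (0.66, adjusted p = 8.97e-05), FN1 (0.36, adjusted p = 6.04e-06) and ITGA5 (0.14, adjusted p = 0.0269). CDH2 encodes N-cadherin and FN1 fibronectin, both often used as mesenchymal markers. Both were already well expressed in Hep3B-Con cells, CDH2 at 29.3, 29.3 and 28.2 FPKM and FN1 at 124, 127 and 126 FPKM, so they do not mark mesenchymal cells here. Other genes of the list used as mesenchymal markers fell, among them VIM, vimentin (-0.35, adjusted p = 0.000101), and TAGLN, transgelin (-0.49, adjusted p = 0.00124). SNAI2 did not pass the test (0.13, adjusted p = 0.652). DAPK1 and BCL2L11 encode mediators of cell death. Many genes of this list also answer to other pathways, and which of them the TGF-β pathway drove in these cells was not tested. COL1A2, COL4A1, COL4A2 and NOX4 were under the minimum.

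The parallel bone morphogenetic protein (BMP) branch uses its own receptors and SMAD1, SMAD5 and SMAD9 but shares SMAD4. Of 19 genes, 16 were tested, 6 rose and 7 fell. Called genes were 81.2% of those tested, against 60.3% of all genes, and the median was 0.04, beside 0.11. HJV, the BMP co-receptor hemojuvelin, rose from 1.84, 2.69 and 2.04 to 5.97, 5.43 and 5.48 FPKM (1.34, adjusted p = 0.000171), and RGMB, of the same family, rose from 0.887, 0.793 and 0.838 to 1.88, 1.88 and 1.99 FPKM (1.10, adjusted p = 0.000117). The type II receptor BMPR2 rose (0.62, adjusted p = 0.000119), and the ligand BMP4 fell from 11.6, 13.2 and 12 to 7.12, 6.26 and 7.29 FPKM (-0.82, adjusted p = 0.000103). The target ID1 fell (-0.45, adjusted p = 0.0139), a call lost under quantile normalization (-0.27, adjusted p = 0.0662). ID2 (-0.13, adjusted p = 0.0117) and ID3 (-0.33, adjusted p = 0.000857), named here after their values were seen, also fell. ID4 rose (0.48, adjusted p = 0.000891). BMP6, BMP7 and HAMP were under the minimum.

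Markers of other liver cells were low. Of 9 stellate and fibroblast markers, 3 were tested (PDGFRB, PDGFRA and LUM) and all 3 fell, where 24.0% of all genes fell. DCN, COL3A1 and THY1 were under 0.1 FPKM in every library, ACTA2 was not analysed here, and the summed level of the list was 11.1 to 12.6 FPKM in Hep3B-Con cells and 7.27 to 8.10 FPKM in Hep3B-KD cells. Of 7 endothelial markers, CLEC4G was not analysed here and the others were under the minimum. Their sums were 0.230 to 0.265 FPKM in Hep3B-Con cells and 0.332 to 0.439 FPKM in Hep3B-KD cells. CDH5, VWF, KDR, TEK and STAB2 were under 0.1 FPKM in every library. Of 8 leukocyte markers, CD68 and CD3E were not analysed here. Only LYZ of the others reached the minimum, and it did not pass the test (0.41, adjusted p = 0.07). The leukocyte sums were 2.16 to 3.25 and 3.26 to 4.12 FPKM, with PTPRC, CSF1R and ITGAM under 0.1 FPKM in every library. Of the 12 hepatocyte markers, 8 rose and 3 fell (91.7% called, against 60.3% of all genes).

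Promoter sequence was read from RefSeq (GRCh38.p14) for all 10 genes, as 26 windows that run from 250 bases before to 50 bases after an annotated start. The SMAD-binding letters CAGAC, or GTCTG on the other strand, were present in 11 of these windows, belonging to SMAD3, SMAD7, TGFB2, TGFB3 and TGFBR1, against 15894 of 35116 windows of all genes (45.3%). The longer CAGACA, or TGTCTG on the other strand, which contains the shorter motif, was present in 4 of the 26 windows and in 16.9% of all windows. The AP-1 letters TGAGTCA, or TGACTCA on the other strand, were present in 2 of the 26 windows, of SMAD3 and TGFBR2, and in 4.95% of all windows. The stretches below are shown for TGFB2, the ligand with the largest t, for the inhibitory SMAD7 and for SMAD3, with the motif in capitals. They lie at chr1:218345271-218345300 (plus strand, 53 bases before a start), chr18:48951076-48951105 (minus strand, 128 bases before a start) and chr15:67125675-67125704 (plus strand, 56 bases before a start).
TGFB2 promoter: ctttgttgaaggCAGACAcgtggttcagag
SMAD7 promoter: ttcttattttgcCAGACgtctcatgcgggg
SMAD3 promoter: actgactcctcTGAGTCAtgcccaggggag

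TGFB2 fell, SMAD7 rose and SMAD3 fell, and a link between these letters and the changes was not tested. A motif of this length occurs often by its letters alone, and no binding was measured.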

How the data were processed

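RNA-seq was performed on 3 Hep3B-Con and 3 Hep3B-KD libraries, grouped by the sample labels. Per the study's methods, libraries were made with a TruSeq RNA kit. The submitters' processing notes name TopHat2 2.0.12, Bowtie2 2.0.6 and GRCh37, and the tool that counted reads is not given in the sources used here. The authors deposited FPKM values for 29908 genes, with 0 other columns of values. Multiplied by the GENCODE release 29 (GRCh38) exon length and the library total, 100% of values gave whole reads to within 0.01, so coordinates are given on GRCh38 although the notes name GRCh37. These reads, assigned to genes, gave the depth and the precision, and counting error only is covered by them.

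Values were analysed as log2(FPKM + 0.1) in the 14147 genes averaging 0.5 FPKM or more, keeping the highest row where a symbol was repeated (382 rows). Genes were tested with limma 3.58.1 (lmFit, eBayes with trend) in R 4.3.3, with Benjamini-Hochberg adjustment, after the fit was tested on simulated data. Single measures used two-sided exact permutation tests (scipy 1.17.1). Alternatives covered filter, pseudocount, scaling, variance model, limma voom, replicate block and each library left out. All 10 genes are named, and from each other list up to 6 called genes with the largest changes, genes under the minimum, and CTGF, SKIL, PMEPA1, THBS1, LTBP1, ITGAV, SMURF2 and DAGLA. A result of this rule is not reported here, though the list counts include its gene. The members and lists were chosen with earlier results of these data known. Beyond the word biological, the origin of the replicates is not stated, so p-values measure the spread between these libraries.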

Additional observations from a re-analysis of the deposited data

How the results depend on the processing

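Of 169 alternative values of the 10 genes, 158 kept their direction and their side of the threshold, 8 lost the call and 3 changed sign. The 8 were all of SMAD4, and the 3 were of TGFB3, at 0.03 without the second control, 0.01 without the third control and 0.01 without the first knockdown library. TGFB3 lay at -0.16 without the first control and at -0.30 under quantile normalization (adjusted p = 0.138), and passed the threshold in none of these. TGFBR3 was not tested with a minimum mean of 1 FPKM and has no value there. STRAP changed sign to 0.04 under quantile normalization. The genes past 2-fold numbered 1249 and fell to 495 with a pseudocount of 1, since that pseudocount shrinks low genes, and with no filter on low values they numbered 1721. Scaling moved the balance of all calls from 5137 higher and 3392 lower (60.2% higher) to 4068 higher and 4308 lower with median centring (48.6%) and 4276 higher and 3909 lower with quantile normalization (52.2%). The difference in the log2 ratio of TGFBR1 to TGFBR2 was -1.11 with a pseudocount of 1 and -1.56 with quantile normalization, that of SMAD2 to SMAD3 was 0.90 and 0.84, and that of SMAD7 to SMAD4 was 0.21 with quantile normalization. The cause of these shifts was not tested. Leaving out each library in turn gave 7805 to 7947 calls (8529 with all), 1182 to 1281 past 2-fold, and 8 to 9 of the 10 genes. It gave differences of -2.72 to -0.238 percentage points for the TGFB1 share, -1.37 to -1.20 for TGFBR1 to TGFBR2, 1.02 to 1.12 for SMAD2 to SMAD3 and 0.04 to 0.13 for SMAD7 to SMAD4.

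Libraries with the same replicate number did not deviate together (correlations of -0.00797, -0.0645 and -0.000907), so the numbers were not taken to pair them. With the replicate block, 7942 genes and 8 of the 10 genes were called, SMAD4 being lost (0.19, adjusted p = 0.0533). Replicates of a group differed by more than counting error (mean chi-square per gene of 1.82 to 3.5). Depth limits TGFBR3 in the controls and TGFB3, the genes with the fewest reads.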

Other observations

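TGFB2-AS1, a non-coding gene chosen here after its values were seen, lies on the opposite strand beside TGFB2 (chr1:218344196-218345678, minus strand). In the GENCODE annotation used here it shares no exon bases with TGFB2. The TGFB2 promoter stretch shown above, 53 bases before a RefSeq start, lies within this span, and so does that start. Whether reads of TGFB2 were counted to TGFB2-AS1 was not tested. TGFB2-AS1 measured 7.15, 5.58 and 6.58 FPKM in Hep3B-Con cells and 1.25, 1.79 and 2.92 FPKM in Hep3B-KD cells. All knockdown values lay below all controls, and the log2 fold change was -1.72 (limma, adjusted p = 0.00172), beside -1.45 for TGFB2. These levels rested on 54 to 70 reads per control library and 11 to 27 reads per knockdown library.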
